A study of Drosophila melanogaster with 3 samples.

Results

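The Polycomb group genes described here are 10 genes of *Drosophila melanogaster*, ph-p, ph-d, Psc, Su(z)2, Pc, Sce, Scm, E(z), Su(z)12 and pho, taken by name from 13945 protein-coding genes on the arms with peaks. Each gene was searched with 2 kb to each side for summits (the position of highest enrichment in a peak) of CG13894, a protein named by its gene number. The chromatin came from whole embryos 2 to 24 h old. They were of 1 transgenic line with a stable source of CG13894 fused, at its C-terminal end, to green fluorescent protein (GFP). It was sheared by sonication, immunoprecipitated with an antibody against GFP and sequenced (ChIP-seq). There was 1 group of 3 biological replicates with 1 technical replicate each, and no control group. The source label gives the 2 to 24 h age; a separate age entry is too large to be an embryo's and was not used. The embryos were whole and of mixed stages, so a summit cannot be assigned to a cell type or a stage.

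Polycomb group proteins keep developmental genes, the Hox genes above all, repressed in the cells where they were off early in the embryo. They act in complexes: PRC1, which compacts chromatin and ubiquitinates a histone, PRC2, which methylates histone H3, and PhoRC, which binds DNA at Polycomb response elements. In the fly the ph locus and the Psc and Su(z)2 region are themselves known to be bound by Polycomb group proteins.

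The peaks are in 5 deposited lists on the dm6 assembly: 1 for each replicate, 1 called on the 3 replicates pooled (each of these 4 with 30000 peaks), and 1 of 7434 peaks kept by a limit on the irreproducible discovery rate, which scores how far replicates rank peaks alike. The last is called the thresholded list, and its peaks were the 7434 strongest of the pooled list. Rank 1 is the peak with the highest signal of its list. Signal is the authors' value per peak and its scale differs between lists, so it is given relative to the median of the 7434 strongest peaks of the same list, which was 338 in the thresholded list and 145, 112 and 107 in replicates 1, 2 and 3. Read depth is unknown, as no file used here gives read counts, and a gene without a listed summit may still be bound.

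CG13894 had a thresholded summit within 500 bp of a transcription start site (TSS), called a promoter summit here, at 6 of the 10 genes: ph-p, ph-d, Su(z)2, Pc, Scm and E(z). The same rule called 22.8% of all protein-coding genes, and 25.2% of the 7431 protein-coding genes with a length in the range of the 10 genes. At a distance of 200 bp, ph-p was no longer called, since its thresholded promoter summits lay 458 and 428 bp from a start site, and 5 of the 10 genes were, beside 18.1% of protein-coding genes. A thresholded summit anywhere in the gene or 2 kb to either side was found for 7 of the 10, with Psc added. The shares were 39.6% of all protein-coding genes and 41.4% of the 7431 in that range of length. Without the flanks of 2 kb, 4 of the 10 genes and 16.0% of all protein-coding genes had a summit, since the thresholded summits of ph-d, Pc and Scm all lay outside the gene itself. The 10 genes were long, with a median of 8360 bp (1599 to 14998) against 2166 bp for protein-coding genes. A longer window can hold more summits. The 7431 genes were kept by that range alone, so their lengths were not matched to those of the 10 genes. The design has no group to test these counts against, so they stand as descriptions.

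The genes differed widely among themselves. Promoter summits with a signal above 1000 were found at 2 of the 10, ph-p and E(z), where 2.06% of protein-coding genes had one. In the pooled list 7 of the 10 had a promoter summit, again with Psc added, against 38.5% of protein-coding genes. Sce and pho had no summit of any of the 5 lists in their windows, as had 31.4% of protein-coding genes. When every gene was placed by its strongest promoter summit in the pooled list, 21 protein-coding genes (0.151%), ph-p among them, were as strong as ph-p or stronger. That share was 1.49% for E(z), 8.79% for Su(z)2, 10.6% for ph-d, 13.3% for Pc, 22.6% for Scm and 26.3% for Psc.

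**Figure D1:**
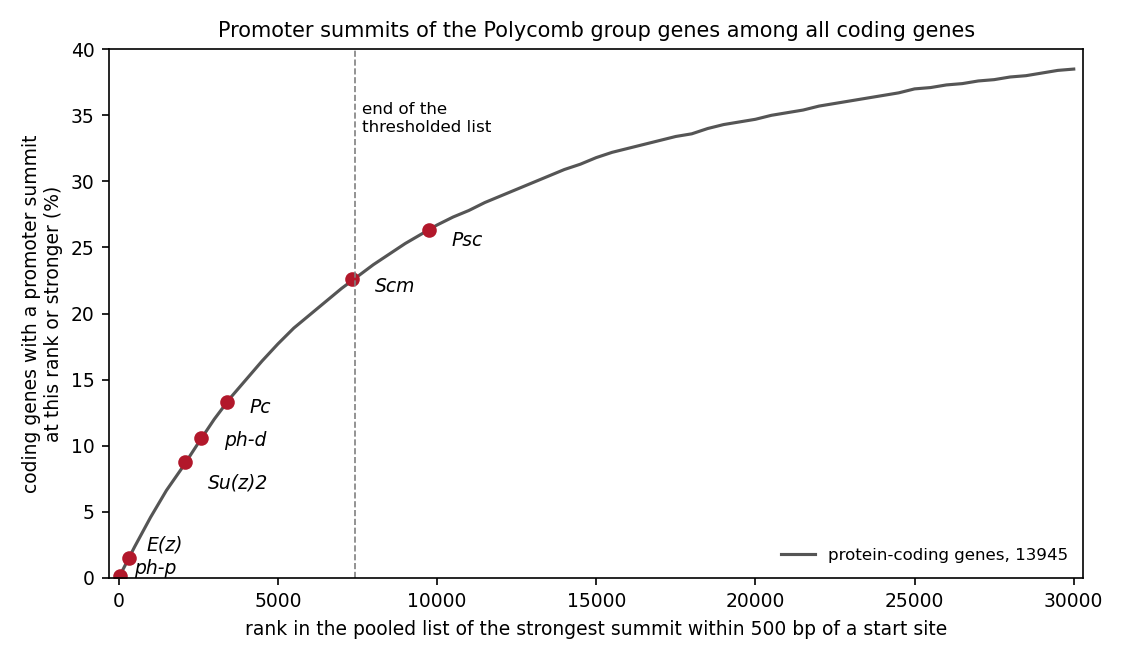
Strongest promoter summit of the Polycomb group genes among 13945 protein-coding genes. The x axis is the rank in the pooled list and the y axis the percent of protein-coding genes with a promoter summit at that rank or stronger; red points are the 7 genes with a promoter summit, from ph-p at rank 42 to Psc at rank 9753, past the dashed line at rank 7434 where the thresholded list ends.

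The ph locus on the X chromosome carried the strongest promoter binding of the 10 genes. ph-p (polyhomeotic proximal, FBgn0004861, chrX:2126210-2138371) and ph-d (polyhomeotic distal, FBgn0004860, chrX:2115727-2123286) are tandem copies on the minus strand that encode closely related PRC1 subunits with a SAM domain, through which these proteins join into chains. The ph-p window held 4 thresholded summits and the ph-d window 3, of which 1 was shared because the genes are 2923 bp apart. The windows of these genes held 7 and 6 summits of the pooled list. In replicates 1, 2 and 3, the ph-p window held 7, 8 and 9 summits and the ph-d window 5, 8 and 4.

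At ph-p, the strongest summit, 2137313, had rank 42 in the thresholded list and a signal of 3030. It was 9.14, 8.86 and 8.34 times the list median in replicates 1, 2 and 3 (mean 8.78 ± 0.408, SD, n = 3), with ranks 38, 40 and 44. It lay in an intron 458 bp upstream of one of the 3 start sites of ph-p, at 2136855. The same peak, 1296 bp wide, held a further summit at 2137943 in the first exon (5′ UTR), 428 bp downstream of the outermost start site. There the replicates had 6.79, 6.63 and 5.89 times the median (6.43 ± 0.482, SD, n = 3; ranks 70, 72 and 89). The lowest of the 3 replicates at 2137313 was above the highest at 2137943. A further ph-p summit, at 2135345, lay in an intron 1277 bp downstream of the nearest start site, with 2.37, 1.83 and 2.00 times the median (2.06 ± 0.279, SD, n = 3). Both of the strongest ph-p summits sat inside the gene, downstream of its outermost start site.

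Binding at ph-d was weaker, and its thresholded summits lay upstream of the gene. The strongest of the thresholded summits there, 2124100, was 814 bp upstream of the outer of the 2 ph-d start sites. It had 1.73, 1.69 and 1.91 times the median (1.78 ± 0.116, SD, n = 3). The promoter summit at 2123369, 83 bp upstream, had 1.16, 0.733 and 1.62 times the median (1.17 ± 0.442, SD, n = 3), so its replicates ranged from rank 1439 in replicate 3 to rank 6319 in replicate 2. The shared summit at 2124302, 1016 bp upstream of ph-d and 1908 bp past the 3′ end of ph-p, had 0.647, 0.497 and 0.614 times the median (0.586 ± 0.0787, SD, n = 3) and was among the 7434 strongest peaks of 0 of the 3 replicates. In every replicate both thresholded ph-p promoter summits were above all 3 of these ph-d summits. A weaker ph-p promoter summit near the innermost start site, 2136463 in the pooled list and not in the thresholded one, had 0.222, 0.266 and 0.324 times the median and was below them. The inner ph-d start site likewise had a pooled summit below the threshold, 2121959 at rank 21747, in an intron 167 bp upstream with 0.251 times the median. Of the replicates, only replicate 2 had summits there. The ph-p and ph-d genes share sequence, which could move reads between them. Of the stretches of 50 bases in ph-d, 30.4% occur elsewhere in the genome, all of these also in ph-p. Of the 12113 stretches in ph-p, 3662 (30.2%) occur elsewhere in the genome, and 2281 of them also in ph-d. In the 200 bp around each of the 6 thresholded summits of the locus, 0 of 151 such stretches occur elsewhere.

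**Figure D2:**
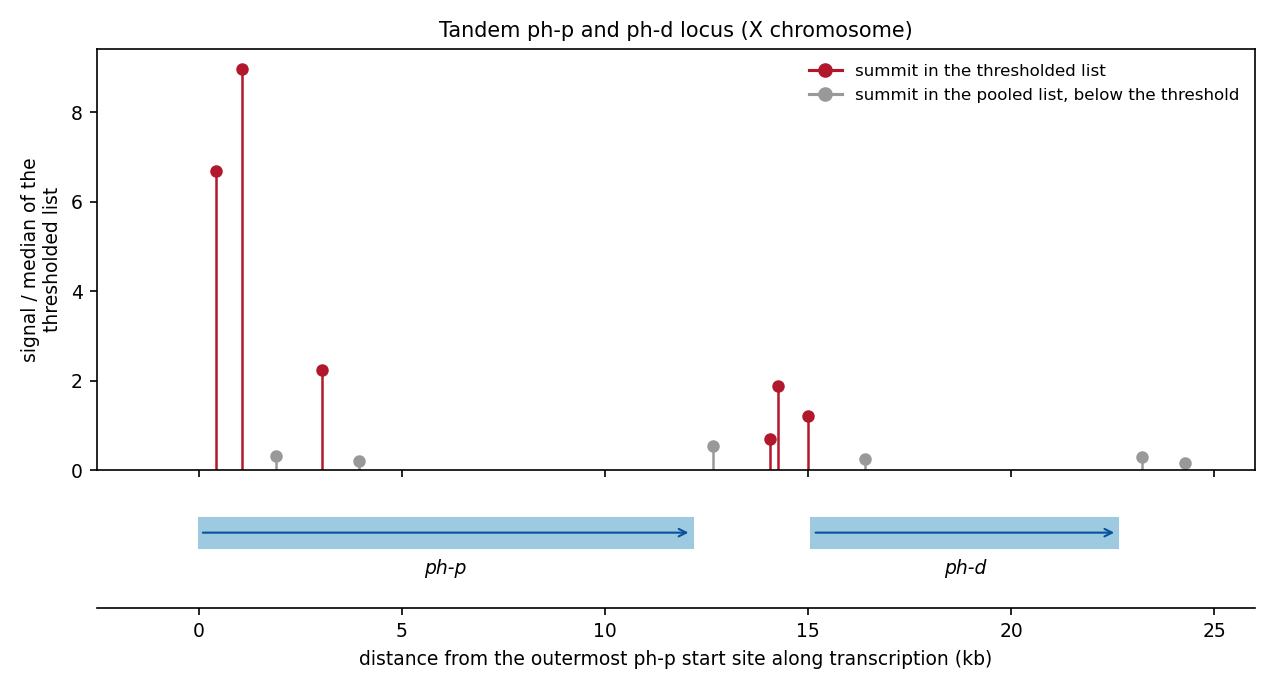
Summits of the pooled list at the tandem ph-p and ph-d genes. The x axis is the distance in kb from the outermost ph-p start site along transcription and the y axis the signal over the median of the thresholded list; red stems are thresholded summits, grey stems weaker pooled summits, and blue bars the genes with arrows for transcription. The tallest stems, 8.96 and 6.68, stand at the 5′ end of ph-p, and the 3 red stems at ph-d, at 1.89 or below, stand upstream of its start.

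The sequences at the strongest ph-p summit and at the ph-d summits 2124100 and 2123369 are shown. Other thresholded summits of the locus outside exons are not shown. These are 2135345, in a ph-p intron with 2.25 times the median of the thresholded list, and the shared summit 2124302. They are from the RefSeq Release 6 assembly, the sequence of dm6, on the minus strand, 5′ to 3′. The ph-p summit sequence is chrX:2137213-2137412, the ph-d sequence 814 bp upstream is chrX:2124000-2124199, and the ph-d promoter sequence, chrX:2123287-2123468, ends at the base before the start site. Capitals mark adjoining copies of GAGAG, the core that GAGA factor recognises, at the ph-d promoter. The other sequences hold none of the motifs searched.
ph-p summit 2137313: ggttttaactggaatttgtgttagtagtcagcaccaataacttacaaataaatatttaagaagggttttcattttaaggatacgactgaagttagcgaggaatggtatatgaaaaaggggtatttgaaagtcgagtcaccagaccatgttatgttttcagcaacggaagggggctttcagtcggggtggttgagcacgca
ph-d summit 2124100: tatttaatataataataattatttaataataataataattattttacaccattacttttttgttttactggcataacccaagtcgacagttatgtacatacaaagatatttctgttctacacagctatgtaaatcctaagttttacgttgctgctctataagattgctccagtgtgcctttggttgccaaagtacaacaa
ph-d summit 2123369: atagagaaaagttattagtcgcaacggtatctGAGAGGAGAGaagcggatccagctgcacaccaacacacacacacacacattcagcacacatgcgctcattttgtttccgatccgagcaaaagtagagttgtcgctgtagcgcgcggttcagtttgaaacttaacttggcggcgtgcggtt

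Pc (Polycomb, FBgn0003042, chr3L:21306138-21318020, minus strand) encodes the chromodomain subunit of PRC1 that binds methylated histone H3. Its promoter summit, 21318092, lay 72 bp upstream of the start site at rank 3395. The replicates had 1.11, 1.02 and 0.836 times the median (0.989 ± 0.140, SD, n = 3), at ranks 3051, 3564 and 5119. The summit was thus above the median in replicates 1 and 2 and below it in replicate 3. A far stronger summit in the window, 21304566 at rank 45, had 8.07, 7.49 and 8.57 times the median (8.04 ± 0.538, SD, n = 3). It lay 1572 bp past the 3′ end of Pc, 92 bp downstream of the start site of CG11309 and 131 bp upstream of that of CG7632, and by position belongs to the promoters of these genes. Between these summits the Pc gene itself held no summit of any list. Of the stretches of 50 bases in the Pc window, 56.9% occur elsewhere in the genome, all of them starting in the 9107 bp intron of Pc (chr3L:21306199-21315305), and the part of repeated sequence in the lack of summits there was not tested.

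Sce (Sex combs extra, FBgn0003330, chr3R:27680431-27682029, minus strand) encodes the RING subunit of PRC1 that ubiquitinates histone H2A. It is the shortest of the 10 genes, with 1599 bp, and had no summit in its window in any list. The nearest thresholded summit was 24902 bp from the gene, at rank 4744 and closest to the start site of CG12877. The nearest pooled summit was 18899 bp away. No stretch of 50 bases in the Sce window occurs elsewhere in the genome.

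Scm (Sex comb on midleg, FBgn0003334, chr3R:9633359-9637611, minus strand) encodes a SAM domain protein that binds Polyhomeotic and joins PRC1 to other Polycomb complexes. Its promoter summit, 9637664, was 53 bp upstream of the start site and close to the end of the thresholded list, with rank 7335 and a signal of 218, where the lowest signal of that list was 217. The replicates had 0.628, 0.424 and 0.693 times the median (0.582 ± 0.140, SD, n = 3), at ranks 7843, 13790 and 6891. It was thus among the 7434 strongest peaks of replicate 3 and not of replicates 1 and 2.

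The sequences upstream of Pc, Scm and Sce are shown to set a promoter near the list's median, one at the edge of the list and one without a summit side by side. All are RefSeq Release 6 (dm6), minus strand, 5′ to 3′, each ending at the base before the gene's start site: chr3L:21318021-21318191 for Pc, chr3R:9637612-9637763 for Scm and chr3R:27682030-27682229 for Sce. Capitals mark TATCGATA, the recognition element of the factor DREF, at Scm, and ATGGC, the reverse complement of GCCAT (the core of sites bound by the protein Pho), at Sce. The Pc sequence holds none of the motifs searched, and a match is a description of these letters, not a bound site.
Pc summit 21318092: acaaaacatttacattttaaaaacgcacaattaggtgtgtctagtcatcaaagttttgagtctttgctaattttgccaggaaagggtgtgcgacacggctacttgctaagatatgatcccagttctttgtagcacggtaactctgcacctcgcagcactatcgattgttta
Scm summit 9637664: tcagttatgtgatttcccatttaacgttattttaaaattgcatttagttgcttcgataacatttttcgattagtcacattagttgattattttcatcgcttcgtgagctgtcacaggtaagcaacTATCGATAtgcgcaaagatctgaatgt
Sce upstream: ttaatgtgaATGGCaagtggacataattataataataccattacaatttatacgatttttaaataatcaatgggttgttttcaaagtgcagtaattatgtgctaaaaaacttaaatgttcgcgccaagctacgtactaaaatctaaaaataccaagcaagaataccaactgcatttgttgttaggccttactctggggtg

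E(z) (Enhancer of zeste, FBgn0000629, chr3L:10634575-10638130, minus strand) encodes the histone methyltransferase of PRC2. It had 1 summit in its window in each of the 5 lists, and this summit was strong: 10638065, with a signal of 1174 and rank 328 in the thresholded list. It had 3.44, 2.91 and 3.27 times the median in the replicates (3.21 ± 0.275, SD, n = 3), with ranks 297, 411 and 325. It lay in the 5′ UTR, 65 bp downstream of the E(z) start site. Cnep1r2 starts on the opposite strand close by, and the summit was 81 bp upstream of its start site, so the binding cannot be assigned to E(z) alone.

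Su(z)12 (FBgn0020887, chr3L:19918242-19923462, minus strand) encodes a PRC2 subunit needed for methylation by E(z). The replicates did not agree at its promoter. Replicate 3 had a summit 51 bp downstream of the start site at rank 2784, with 1.17 times the median. Replicate 2 had one 12 bp downstream at rank 10769, with 0.514 times. Replicate 1, the pooled list and the thresholded list had none. The summits of replicates 2 and 3 were also within 500 bp of the start site of Pfdn6, so they cannot be assigned to Su(z)12 alone. The nearest thresholded summit was 5184 bp from the gene, closest to the start site of RhoGDI, and the 2 pooled summits in the window were within 500 bp of the start site of the neighbour Grasp65.

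pho (pleiohomeotic, FBgn0002521, chr4:1172469-1181628, minus strand) encodes the DNA-binding subunit of PhoRC. No list had a summit in its window. The nearest thresholded summit was 25807 bp away, at rank 2259 and closest to the start site of CG32017. Of the stretches of 50 bases in the pho window, 8.43% occur elsewhere in the genome, and the part of repeated sequence in the lack of a summit was not tested.

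Psc and Su(z)2 are neighbours on arm 2R that are transcribed away from each other and encode related RING finger proteins of PRC1 with overlapping roles in the fly. Psc (Posterior sex combs, FBgn0005624) spans 12965997 to 12980994 on the minus strand, and Su(z)2 (Suppressor of zeste 2, FBgn0265623) spans 12996501 to 13007911 on the plus strand. They held many summits: 3 thresholded and 12 pooled in the Psc window, and 5 and 13 in the Su(z)2 window. In replicates 1, 2 and 3 the Psc window held 13, 10 and 12 summits and the Su(z)2 window 13, 13 and 12. No stretch of 50 bases in either window occurs elsewhere in the genome.

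At Psc the 3 thresholded summits lay away from the promoter. The strongest, 12973250, was in an intron 7408 bp downstream of the nearest start site and had 1.12, 0.929 and 0.982 times the median (1.01 ± 0.0997, SD, n = 3). The summit at 12975623, in an intron 5035 bp downstream, had 0.573, 0.592 and 0.770 times (0.645 ± 0.108, SD, n = 3). The summit at 12965750, 247 bp past the 3′ end, had 0.720, 0.587 and 0.685 times (0.664 ± 0.0691, SD, n = 3). In each replicate the summit at 12973250 was the highest of the 3. The Psc promoter itself was below the threshold, at pooled rank 9753 with a signal of 177, and had 0.442, 0.662 and 0.663 times the median in the replicates, with ranks 12585, 7434 and 7337.

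At Su(z)2 the strongest summit was at the far end of the gene. It lay at 13006684 in the 3′ UTR, 9561 bp downstream of the nearest start site, with rank 615 and 2.62, 2.11 and 2.28 times the median (2.34 ± 0.259, SD, n = 3). Of the summits of this window it was the highest in each replicate. The promoter held 3 thresholded summits. That at 12996529, in the 5′ UTR 28 bp downstream of the first start site, had 0.904, 1.04 and 1.99 times the median (1.31 ± 0.591, SD, n = 3). That at 12997223, 100 bp downstream of the second start site, had 0.604, 1.58 and 0.923 times (1.04 ± 0.499, SD, n = 3), and that at 12997435 had 0.318, 0.727 and 0.753 times (0.599 ± 0.244, SD, n = 3). The replicates placed the promoter signal differently: replicate 3 was highest at 12996529, replicate 2 at 12997223, and replicate 1 was lowest at all 3. The summit at 12997435 was the lowest of the 3 in each replicate, while the order of the other summits changed between replicates. An intronic summit at 12998768, 1645 bp downstream, had 0.771, 1.25 and 0.997 times (1.01 ± 0.240, SD, n = 3). The value of replicate 1 there is from the peak that contains the position, whose own summit is 127 bp away. A neighbouring peak of replicate 1 has a nearer summit, 73 bp away at 12998695, with rank 2289 and 1.26 times the median, so the value of replicate 1 depends on which peak is taken.

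The 15506 bp between Psc and Su(z)2, mostly outside both windows, held the strongest binding of the pair. The summit at 12985208, rank 117 with a signal of 1898, had 5.02, 5.24 and 5.53 times the median in the replicates, with ranks 135, 120 and 104. It lay 4214 bp upstream of Psc and 159 bp upstream of a noncoding gene, lncRNA:CR44339. The summit at 12991926, 4575 bp upstream of Su(z)2, had 1.24, 1.07 and 1.31 times. That at 12991070, 5431 bp upstream of Su(z)2, had 1.59 and 1.78 times in replicates 1 and 2 and was not listed in replicate 3. Both were nearer to the start site of another gene, CG33798, at 1971 and 2827 bp upstream of it. These 3 summits are not counted among those of the 10 genes.

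**Figure D3:**
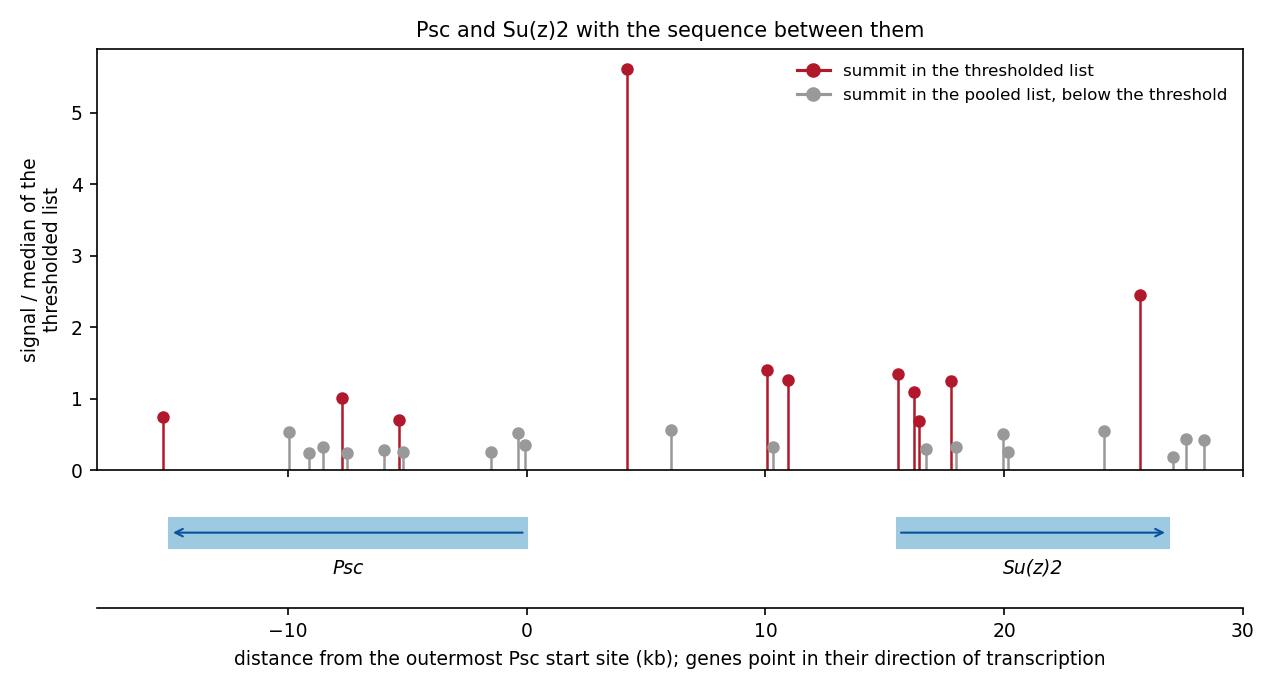
Summits of the pooled list at Psc, Su(z)2 and the interval between them. The x axis is the distance in kb from the outermost Psc start site and the y axis the signal over the median of the thresholded list; red stems are thresholded summits, grey stems weaker pooled summits, and blue bars the genes with arrows for transcription. The tallest stem, 5.61, stands in the interval, and the next, 2.45, at the 3′ end of Su(z)2.

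Over the 10 windows there were 18 distinct thresholded summits in 120.7 kb, or 0.149 per kb, against 0.0644 per kb over the windows of all protein-coding genes. Without the ph genes there were 12 in 94.08 kb, or 0.128 per kb. The density was 0.324 per kb at Su(z)2, 0.260 at ph-d and 0.247 at ph-p, and from 0.121 to 0.158 at Psc, E(z), Pc and Scm. Of the 18 summits, 9 were within 500 bp of a start site of one of the 10 genes and 1 of another gene's. These 10 (55.6%) at promoters stand beside 43.6% of all thresholded summits, and the 8 (44.4%) farther from any start site beside 56.4%. By annotation 8 lay in introns, 6 were intergenic, 3 lay in 5′ UTRs, 1 in a 3′ UTR and 0 in coding exons. Of the 9 promoter summits of the 10 genes, 4 were upstream of the nearest start site.

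All 18 summits were listed in each of the 3 replicates, as were 93.6% of all thresholded summits, a list itself kept for agreement between these replicates. Of the 18, 12 (66.7%) were among the 7434 strongest peaks of each replicate, beside 58.2% of all thresholded summits. Of the rest, 3 were among the strongest peaks of 2 replicates, 2 of 1 replicate and 1, the summit shared by the ph genes, of 0. Counted in each replicate's own 7434 strongest peaks, 5, 6 and 8 of the 10 genes had a promoter summit in replicates 1, 2 and 3 (6.33 ± 1.53, SD, n = 3), beside 23.3%, 23.3% and 25.0% of protein-coding genes (23.9% ± 0.981). ph-p, ph-d, E(z), Su(z)2 and Pc were called in each replicate. Psc was called in replicates 2 and 3, at ranks 7434 and 7337, so in replicate 2 it held the last rank taken. Scm and Su(z)12 were called in replicate 3.

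**Figure D4:**
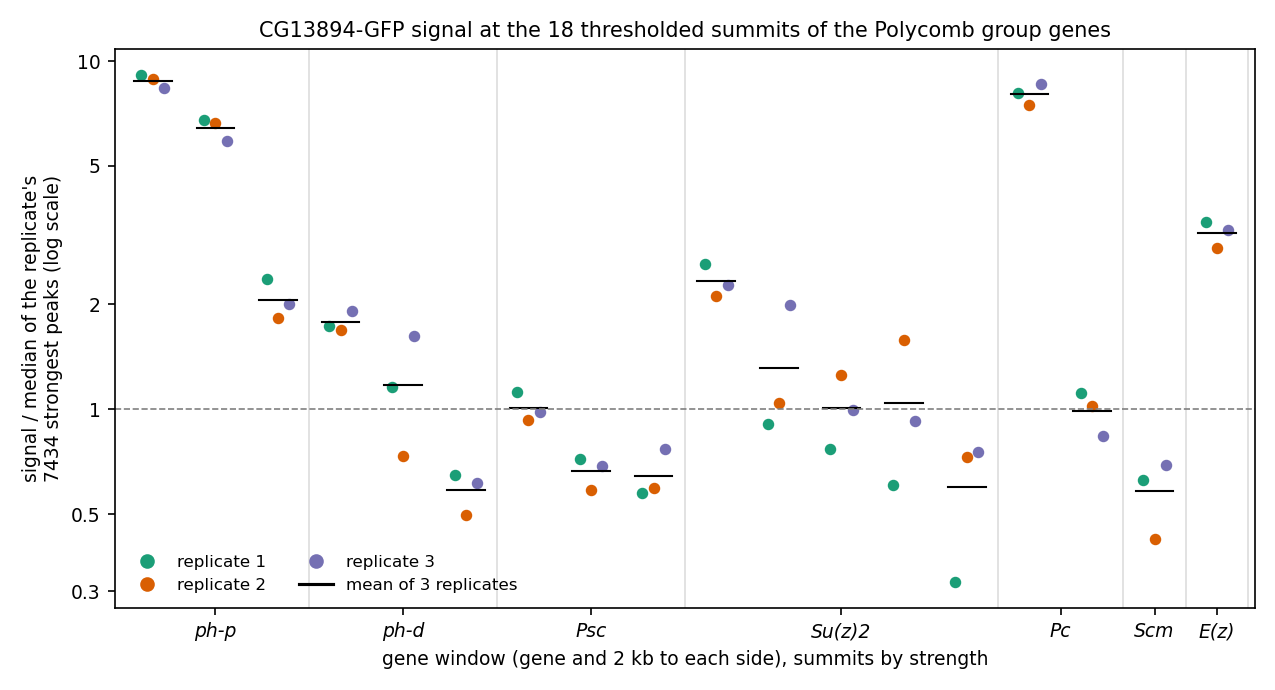
Signal at the 18 thresholded summits in the windows of the Polycomb group genes. The x axis groups the summits by gene, in order of thresholded signal within a gene, with the summit shared by the ph genes drawn once, and the y axis (log scale) is the signal over the median of the replicate's 7434 strongest peaks; points are replicates, bars their mean, and the dashed line marks the median. The points of the strongest ph-p summit and of the summit past the 3′ end of Pc lie between 7.49 and 9.14, while those of the Su(z)2 promoter summits spread from 0.318 to 1.99.

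Letters recognised by GAGA factor, Pho and DREF were searched on both strands in the 200 bp around each summit. GAGAG, the core bound by GAGA factor, was in 6 of the 18 summit windows (33.3%) and in 28.1% of all thresholded ones. Its longer form GAGAGAGA, which contains it, was in 0 of 18 against 2.43% of all. The window at the first Su(z)2 start site held 6 copies of GAGAG, the ph-d promoter window held 3 and that at 12997223 in Su(z)2 held 2. GCCAT, the core of sites for the protein Pho, was in 1 of 18 (5.56%, at Scm) against 33.1% of all. TATCGATA, the DREF element, was also in 1 of 18 (Scm) against 3.19%. These counts moved with the window: GAGAG was in 1 of 18 at 100 bp (14.1% of all) and 9 of 18 at 400 bp (49.0%), and GCCAT in 0 at 100 bp (19.0%) and 6 at 400 bp (54.3%). The GC content of the windows had a median of 40.2% (25.5 to 55.0%) against 43.5% over all thresholded summits, and its part in these counts was not tested.

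Among other genes of the pathway, the share with a promoter summit varied between lists. Of 33 such genes in 5 lists, 11 (33.3%) had a thresholded promoter summit, beside the 22.8% of all protein-coding genes. When thresholded peaks had to be among the strongest of both remaining replicates, the 11 became 6 without replicate 1, 7 without replicate 2 and 8 without replicate 3. Those are 18.2%, 21.2% and 24.2% of the 33 genes, beside 17.5%, 17.8% and 17.6% of all protein-coding genes, so without replicate 1 the share was near the background. The list of DNA-binding factors found at Polycomb response elements had 5 of 6: cg (rank 1217), Trl, the gene of GAGA factor (rank 1578), grh (rank 2900), psq (rank 6479) and Dsp1 (Dorsal switch protein, rank 7308), and the sixth, Spps, had a pooled promoter summit at rank 15428. At Trl the replicates had 1.67, 1.46 and 1.56 times the median, at cg 1.62, 1.89 and 1.71, and at grh 1.09, 1.05 and 1.24. At all 3 of these promoters each replicate was above its list's median. At psq the replicates had 0.865, 0.458 and 0.897 times the median and at Dsp1 0.822, 0.468 and 0.831, all below it. In replicate 2 the strongest promoter summits of psq and Dsp1 had ranks 12553 and 12187, outside the strongest peaks taken from that replicate. Summits within 500 bp of another gene's start site too were those of cg (mRpS16), Trl (CG42507), Dsp1 (CG9921) and grh (asRNA:CR45270), so they cannot be assigned to 1 gene.

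PRC2 and its partners had 1 of 6 bound at the promoter, jing, a zinc finger gene whose product is found with PRC2, with 1.52, 1.75 and 1.42 times the median in the replicates and 13 thresholded summits in its window. The jing gene is 119787 bp long, and its density, 0.105 summits per kb, was below the 0.149 of the 10 genes. The jing summit was also within 500 bp of the start site of lncRNA:CR46075. PhoRC and PR-DUB (a complex that removes ubiquitin from histone H2A) had 1 of 4, phol, a relative of pho, with 0.704, 0.828 and 0.627 times, a summit also at the start sites of CG3552 and asRNA:CR45873. Where pho itself had no summit, phol thus had one near the end of the list, at rank 5782. Other Polycomb group genes and PRC1-type subunits had 3 of 7: Kdm2, a histone demethylase gene, with 1.68, 1.30 and 1.74 times, l(3)73Ah, which encodes a RING finger relative of Psc, with 1.11, 0.931 and 1.00 times and a summit also near asRNA:CR45895, and corto, with 0.593, 0.860 and 0.762 times.

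Of 10 genes that are classic targets of Polycomb repression, the Hox genes with en and inv, 1 had a thresholded promoter summit. This was Antp, a Hox gene, at rank 3427 with 1.03, 1.08 and 0.789 times the median in the replicates. A further 3 of the 10, lab, Ubx and inv, had a thresholded summit elsewhere in the window. The 4 of 10 with a window summit stand beside 39.6% of all protein-coding genes. These targets are 4205 to 102976 bp long, against a median of 2166 bp for protein-coding genes. A longer window can hold more summits, so the window shares are not matched for length. At promoters the count is 1 of 10, beside the 22.8% of all protein-coding genes. With 10 genes in the list, 1 gene more or less moves the share widely.

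The genes whose promoter rank was most like that of ph-p over the 3 replicates, among 4718 protein-coding genes with a promoter summit in each replicate, were CtsK2 (FBgn0034229) and amon (FBgn0023179). Their ranks were 37, 36 and 38, and 30, 38 and 41, against 38, 40 and 44 for ph-p, a mean difference of 3.67 and 4.33 ranks.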

How the data were processed

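Peak lists from ChIP-seq of 3 biological replicates were used as deposited by the authors, on dm6. Per the labels and their notes on the files, each replicate list and the pooled list were called against a control alignment. The thresholded list is their optimal set by irreproducible discovery rate. Not given in the sources used here are the aligner, the caller and the value of that limit. The signal per peak is the deposited value of the authors' caller, on a scale that differs between lists, and the depth per library is unknown. Nothing beyond the label of biological replicate says how the embryo collections were separated, so an SD measures the spread between these samples. Signal tracks and the control library were not used here.

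Summits are the peak start plus the deposited offset, 1-based; in 5 thresholded peaks the offset ran too far and the last base was taken. Genes (17896, with 23722 start sites) are from Ensembl release 115 on the Release 6 assembly. A replicate's value at a thresholded summit is that of its peak containing the position. The number of peaks taken per replicate as strongest, 7434, is the length of the thresholded list. Scripts used Python 3.11.15, numpy 2.4.6 and matplotlib 3.10.9 and were tested on simulated data. No test was run, as there is 1 group.

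The genes and lists were chosen with earlier results of these data known. All 33 genes of the related lists were found in the annotation, caly and Dsp1 by a RefSeq synonym. Named are the 10 genes, up to 4 genes with the strongest thresholded promoter summits in each related list, the genes nearest to a summit in a window, and the 2 genes most like ph-p in promoter rank. The interval between Psc and Su(z)2, with the genes nearest to its summits, was named after its values were seen. So were CG12877, CG32017 and RhoGDI, which are nearest to the closest thresholded summits outside the windows of Sce, pho and Su(z)12. This also holds for the genes that share a promoter with the 10 genes or with related genes. It holds as well for psq, Dsp1, Spps, lab, Ubx, inv, Jarid2 and E(Pc). Alternatives were other promoter distances, flanks, lists and motif windows, 1 start site per gene, joined summits and leaving out each replicate. The share among genes with a length in the range of the 10 genes was added after seeing the data.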

Additional observations from a re-analysis of the deposited data

How the results depend on the processing

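The number of genes with a promoter summit, 6 of 10, was 5 at 200 bp, without ph-p (18.1% of protein-coding genes), 6 at 1000 bp (26.5%), 5 in the stronger 50% of the list (14.2%), 7 in the pooled list and 6 with 1 start site per gene (20.5%). Leaving out any 1 replicate gave 5, without Scm, beside 17.5 to 17.8% of protein-coding genes, and 6 genes with a summit in the window, beside 32.5 to 32.9%. The 7 genes with a summit in the window became 4 with no flank (16.0% of protein-coding genes), and the 18 summits became 11 with no flank and 45 in the pooled list. The 11 related genes became 7 (21.2%) in the stronger 50% of the list, beside 14.2% of protein-coding genes, and 17 (51.5%) in the pooled list, beside 38.5%. They became 6 (18.2%, without replicate 1) to 8 (24.2%) when a replicate was left out, beside 17.5 to 17.8%. GAGAG, in 6 summit windows, was in 1 at 100 bp, and GCCAT, in 1, was in 0 at 100 bp and 6 at 400 bp. The cause of these shifts was not tested, beyond the smaller or larger windows and lists themselves. No result is a signed difference, so none could reverse. No paired analysis was possible because there is 1 group and no test. Unknown depth, lists that end at 30000 peaks and mixed stages limit what an absent or weak summit shows.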

Other observations

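Of the 7434 strongest peaks of replicates 1, 2 and 3, 244 (3.28%), 249 (3.35%) and 388 (5.22%) overlapped no peak of the pooled list. Some promoter summits of replicates likewise had none in the pooled list within 500 bp of the same gene's start sites. Jarid2, which encodes a partner of PRC2, had a promoter summit at ranks 4088 and 4095 in replicates 1 and 2 and none in replicate 3 or in the pooled list. E(Pc), Enhancer of Polycomb, had one at ranks 6023 and 5811 in replicates 1 and 3 and none in replicate 2 or in the pooled list. These 2 genes and Su(z)12, described above, are values with no explanation tested.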
